A study of Saccharomyces cerevisiae with 51 samples.

Results

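The mitochondrial ribosomal protein deletion mutants are the yeast knockout strains in which a nuclear gene for a protein of the mitochondrial ribosome is replaced by a drug-resistance cassette flanked by 2 strain-specific barcodes, the UPTAG and the DNTAG. They were chosen by gene name, with no measured value in the rule: 59 of the 6128 mutants in the barcode count table, 35 for the large subunit and 24 for the small subunit. The mutants came from a pool of MATa haploid strains, mostly derived from BY4741, that had been transformed with a pFUS1-GFP reporter directed to BAR1, so that in all groups, presort included, integration also removed the Bar1 protease that degrades α-factor. *FUS1* is a gene switched on by the pheromone pathway, so GFP reads out mating-pathway activity. The pool received α-factor at 10 nM over 2 h (In) or was grown vegetatively (Un), and cells without GFP (Gfp-) were collected by flow sorting and regrown to saturation in medium lacking leucine before their barcodes were sequenced. The groups used here are Un Gfp-, Un presort, In Gfp- and In presort, with 3 biological replicates each, where presort is the library before sorting, and the reads of both barcodes were added up for each replicate.

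The mitochondrial ribosome translates the few proteins encoded by mitochondrial DNA, almost all of them subunits of the respiratory chain and the ATP synthase. Its proteins are encoded in the nucleus and imported, and part of them have bacterial counterparts whereas others are found only in mitochondria. Yeast that lack mitochondrial translation can live by fermentation but do not respire, and they tend to lose their mitochondrial DNA and form small colonies.

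Most of these strains gave no barcode reads in any library. In total, 40 of the 59 mutants (67.8%) had 0 reads in all 12 libraries, compared with 1710 of the 6069 other mutants in the table (28.2%). A further 8 mutants had only 1 or 2 reads over the 12 libraries, so 48 (81.4%) had at most 2, against 32.7% of the other mutants. A mean of at least 50 presort reads, the minimum for testing, was reached by 9 of the 59 (15.3%) and by 58.4% of the other mutants. A count of 0 over the 6 presort libraries allows a share of up to 0.113 rpm (reads per 1000000 reads of a library), which covers counting error only, and a strain missing from the pool cannot be told apart from a barcode that could not be read.

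The strains with no reads fell in both subunits and in both evolutionary classes. In the large subunit, 23 of 35 mutants had none, and 15 of these 23 lacked a protein with a bacterial counterpart (MRPL4, MRPL6, MRPL7, MRPL8, MRPL10, MRPL11, MRPL22, MRPL23, MRPL24, MRPL32, MRPL33, MRPL36, MRPL49, MRP7 and MRP20). The other 8 of the 23 lacked a mitochondria-specific protein (MRPL3, MRPL13, MRPL17, MRPL20, MRPL25, MRPL27, MRPL31 and MRPL37). In the small subunit, 17 of 24 had none, 11 with a bacterial counterpart (MRP2, MRP4, MRP17, MRP21, MRPS5, MRPS8, MRPS16, MRPS17, MRPS18, MRPS28 and RSM7) and 6 without (MRP1, MRPS35, RSM22, RSM24, RSM26 and RSM27). Strains with 1 or 2 reads were *mrpl9*Δ, *mrpl16*Δ, *mrpl35*Δ, *mrpl38*Δ, *mrpl40*Δ, *mrpl51*Δ, *rsm18*Δ and *rsm19*Δ. Only 3 of the 37 mutants for proteins with a bacterial counterpart were tested, against 6 of the 22 for mitochondria-specific proteins, a split given as a description.

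The same scarcity was seen in other strains defective in making mitochondrial proteins or in respiration. All 13 mutants for mitochondrial aminoacyl-tRNA synthetases, the enzymes that load amino acids onto mitochondrial tRNAs, had at most 2 reads, and 11 had none. Of 38 mutants for mitochondrial translation factors that are not ribosomal proteins, 29 had at most 2 reads and 5 were tested. Of 51 mutants for nuclear subunits of the respiratory chain and the ATP synthase, 40 had at most 2 reads and 6 were tested.

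The sequencing depth of the 12 libraries ranged between 192483 reads (Un Gfp- replicate 3) and 13140634 reads (In Gfp- replicate 1), and replicate 1 was run on a HiSeq 2000 whereas replicates 2 and 3 were run on a HiSeq 2500. Log reads of replicates correlated at 0.759 to 0.912 in the Gfp- pools and at 0.963 to 0.986 in the presort pools (Pearson's r across mutants, which are not independent replicates). Each library was scaled by TMM factors, which set the bulk of the mutants level, so that a fold change is relative to that bulk. Scaled by total reads instead, the median log2 fold change of all mutants was -5.32 in Un Gfp- against Un presort and -6.17 in In Gfp- against In presort. A strain whose share fell less than that median can thus have a positive fold change on the TMM scale, and reads or shares are given beside the members' fold changes.

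Before sorting, the 9 tested strains spanned a wide range of abundance. The most abundant was *rsm25*Δ (YIL093C), which lacks a small-subunit protein specific to mitochondria, with 1237 ± 304 rpm in Un presort (SD, n = 3), rank 93 of the 4195 mutants with reads there. Next came *mrpl28*Δ (YDR462W), which lacks a mitochondria-specific large-subunit protein, with 556 ± 255 rpm (rank 504), and *rsm28*Δ (YDR494W), whose small-subunit protein is known to be dispensable for respiratory growth, with 247 ± 94.6 rpm (rank 1220). These 3 strains and *mrpl44*Δ (YMR225C, 194 ± 9.53 rpm), *mrpl39*Δ (YML009C, 161 ± 72.8 rpm) and *mrp13*Δ (YGR084C, 123 ± 9.15 rpm) lay above the median of the mutants with reads, 114 rpm. Below it lay *mrpl50*Δ (YNR022C, 74.1 ± 5.69 rpm), *mrpl1*Δ (YDR116C, 35.2 ± 11.6 rpm) and *mrp49*Δ (YKL167C, 22.0 ± 5.85 rpm). Over the replicates, each strain in the order *mrpl28*Δ, *rsm28*Δ, *mrpl44*Δ, *mrpl39*Δ, *mrp13*Δ overlapped with the next, as did *mrpl1*Δ with *mrp49*Δ, whereas *rsm25*Δ lay apart from *mrpl28*Δ and *mrpl50*Δ from both its neighbours. The lowest shares above 0 belonged to *rsm19*Δ (0.0602 rpm), *mrpl35*Δ (0.134 rpm) and *mrpl38*Δ (0.183 rpm), each resting on 1 read.

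Induction with α-factor did not measurably change the abundance of these strains before sorting. In presort was compared with Un presort to ask whether pheromone itself altered the pool, and none of the 9 mutants was called, on a background of 0% of 3504 tested mutants called in either direction (edgeR's quasi-likelihood test; 34 mutants had an unadjusted p under 0.05, none of them among the 9, and DESeq2 also called 0). The log2 fold changes ran between -0.27 ± 0.46 (SE) for *mrpl39*Δ and 0.56 ± 0.42 for *mrpl28*Δ, with a median of 0.04 for the 9 and -0.01 for all mutants tested. The shares of *mrpl44*Δ were 212, 216 and 221 rpm in In presort, against 205, 189 and 188 rpm in Un presort. These groups did not overlap, but the share of all mutants for which this held was not counted. The log2 fold change of *mrpl44*Δ was 0.16 ± 0.09 (adjusted p = 0.9998), and like all 3504 tested mutants it was not called.

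In the Un Gfp- pool, *mrpl28*Δ and *rsm25*Δ were strongly enriched and no other mitochondrial ribosomal protein mutant was called. This comparison asks which strains changed in abundance among uninduced cells sorted as Gfp- and then regrown. Whether a change came from an effect of the deletion on the reporter was not tested. By edgeR's quasi-likelihood test, 2 of 9 tested mutants were called higher, where 12.2% of all 3414 tested mutants were. Called lower were 0 of 9, where 5.27% of all were, and 1 of the 9, *mrpl1*Δ, was lower at an unadjusted p of 0.0311. In either direction, 3 of the 9 and 1270 of all 3414 mutants had an unadjusted p under 0.05. DESeq2 gave the same counts of members, but over all mutants it called 537 higher and 406 lower. With total reads as the scale, *mrpl28*Δ and *rsm25*Δ were called higher and the other 7 lower, where 116 of all 3414 mutants were called higher and 3199 lower.

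The *rsm25*Δ strain made up 1.91%, 2.12% and 1.85% of the reads in Un Gfp- replicates 1, 2 and 3, against 0.159%, 0.104% and 0.108% in Un presort. Every sorted replicate was far above every presort replicate, and the pooled share was 14.4-fold higher (95% exact interval 14.1 to 14.6). On the TMM scale its log2 fold change was 9.02 ± 1.24 (SE), rank 39 of 3414 (adjusted p = 0.000815).

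The *mrpl28*Δ strain made up 1.18%, 1.82% and 1.26% of the reads in Un Gfp-, against 0.0705%, 0.0262% and 0.0702% in Un presort. Its groups were as cleanly separated, with a pooled share 20.8-fold higher (20.3 to 21.4) and a log2 fold change of 9.73 ± 1.30, rank 2 of 3414 (adjusted p = 0.000694). Together *mrpl28*Δ and *rsm25*Δ held 3.09%, 3.94% and 3.10% of all reads in Un Gfp-, against 0.229%, 0.130% and 0.179% in Un presort. The intervals of the pooled shares cover counting error only.

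Both calls in Un Gfp- were lost when replicate 1 or replicate 2 was left out, with fold changes of like size. In both of these settings 0 of all 3414 mutants were called in either direction. Without replicate 1, which leaves the HiSeq 2500 libraries, the log2 fold changes were 9.84 for *mrpl28*Δ (adjusted p = 0.125) and 8.95 for *rsm25*Δ (adjusted p = 0.130). Without replicate 2 they were 8.91 (adjusted p = 0.0880) and 8.65 (adjusted p = 0.117). Over all alternatives, adjusted p ran between 7.24e-34 and 0.125 for *mrpl28*Δ and between 2.49e-37 and 0.130 for *rsm25*Δ, and neither changed direction.

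In the In Gfp- pool, *rsm25*Δ and *mrpl28*Δ were again the strongly enriched members. This comparison asks which strains changed in abundance among cells sorted as Gfp- in the presence of pheromone and then regrown. An effect of the deletion on the reporter was again not tested. Of 9 tested mutants, 3 were called higher and 1 lower, where 15.2% and 10.1% of all 3553 tested mutants were. Over all mutants, 540 were called higher and 359 lower with TMM, 566 and 633 with median-of-ratios factors, and 119 and 3330 with total reads.

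The *rsm25*Δ strain made up 2.13%, 2.00% and 2.14% of the reads in In Gfp-, against 0.184%, 0.122% and 0.166% in In presort. The pooled share was 13.1-fold higher (12.9 to 13.3), with a log2 fold change of 9.41 ± 1.16, rank 30 of 3553 (adjusted p = 1.45e-05). It was called under every alternative, with adjusted p of at most 0.0461, and without replicate 1 its log2 fold change was 9.13 (adjusted p = 0.0269).

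The *mrpl28*Δ strain made up 1.36%, 0.387% and 0.704% of the reads in In Gfp-, against 0.105%, 0.0829% and 0.0566% in In presort. The sorted replicates spread more widely than those of *rsm25*Δ but did not overlap with the presort ones, with a pooled share 13.1-fold higher (12.9 to 13.4) and a log2 fold change of 9.15 ± 1.22 (rank 55, adjusted p = 2.25e-05). It was called under every alternative that could test it, with adjusted p of at most 0.0331, and without replicate 1 the log2 fold change was 8.00 (adjusted p = 0.0263).

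The *mrpl28*Δ strain was read almost wholly through its DNTAG. In Un presort only 9 of its 6133 reads were UPTAG reads, so the UPTAG alone could not test it. Of its 186245 reads in In Gfp-, 10936 were UPTAG reads, and 10823 of these came from replicate 1. There they amounted to 2075 UPTAG rpm, against 86.0 and 98.8 UPTAG rpm in replicates 2 and 3 of the same pool. The DNTAG share of a library varied between 19.7% (In Gfp- replicate 2) and 88.8% (Un Gfp- replicate 2), and the low summed share of *mrpl28*Δ in In Gfp- replicate 2 stands beside that lowest DNTAG share.

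Counted within DNTAG reads alone, *mrpl28*Δ was much more even. It made up 1.72%, 2.05% and 1.98% of DNTAG reads in Un Gfp-, against 0.155%, 0.0799% and 0.0879% in Un presort. In the induced pools it made up 2.12%, 1.93% and 1.91% in In Gfp-, against 0.170%, 0.105% and 0.128% in In presort. With DNTAG reads only, its log2 fold changes were 9.29 ± 1.47 (adjusted p = 0.00208) in Un Gfp- and 9.01 ± 1.20 (adjusted p = 2.01e-05) in In Gfp-.

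The DNTAG shares of *mrpl28*Δ and *rsm25*Δ ran side by side in all 12 libraries, a pattern noticed after the values were seen. *rsm25*Δ made up 1.83%, 2.10% and 1.77% of DNTAG reads in Un Gfp- and 2.18%, 1.88% and 2.12% in In Gfp-. The ratio of *mrpl28*Δ to *rsm25*Δ lay between 0.801 and 1.12 over the 12 libraries. Among the 6128 mutants, only 6 others had DNTAG shares within 1.5-fold of those of *mrpl28*Δ in every library, and *rsm25*Δ was the closest, at most 1.25-fold apart. Of the other 5, YIL012W, AIR1 (YIL079C) and IMP21 (YIL154C) lie on the left arm of chromosome IX, as does RSM25, GAT4 (YIR013C) lies on its right arm, and SSN2 (YDR443C), for a subunit of the Mediator kinase module, lies on the same arm as MRPL28. Whether the barcode counts of these strains are independent of each other was not tested.

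Unlike *mrpl28*Δ, *rsm25*Δ was read through both barcodes with like results. Its UPTAG share was 2.11%, 2.25% and 1.97% of UPTAG reads in Un Gfp-, against 0.169%, 0.106% and 0.121% in Un presort. With UPTAG reads only, its log2 fold change was 8.61 ± 0.88 (adjusted p = 2.62e-20) in Un Gfp- and 8.62 ± 0.58 (adjusted p = 8.20e-07) in In Gfp-. With DNTAG reads only it was 9.23 ± 1.48 (adjusted p = 0.00220) and 8.92 ± 1.19 (adjusted p = 2.01e-05).

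The strains deleted for the ORFs next to MRPL28 and RSM25 gave contrasting values. On one side of MRPL28 lies MFA1 (YDR461W), which encodes a precursor of the mating pheromone a-factor, and *mfa1*Δ had 2361 reads in Un Gfp-, against 165 in Un presort, and 4715 reads in In Gfp-, against 366 in In presort. It was called higher in both, with log2 fold changes of 9.21 ± 0.83 (adjusted p = 0.000402) and 9.25 ± 1.09 (adjusted p = 1.18e-05). On the other side, *stp1*Δ (YDR463W), deleted for a transcription factor of amino acid uptake, had 1 read in Un Gfp-, against 63 in Un presort, and 0 reads in In Gfp-, against 93 in In presort, which was too few to test.

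None of the tested strains next to RSM25 was called, and their shares of reads were lower in both dark pools. YIL092W had 430 reads in Un Gfp-, against 10699 in Un presort, LYS12 had 2, against 328, and PRK1 had 46, against 1795. In the induced pools YIL092W had 525 reads in In Gfp-, against 17695 in In presort, LYS12 had 13, against 476, and PRK1 had 28, against 2960. Relative to the bulk, their log2 fold changes in Un Gfp- were 0.90 ± 0.40 for YIL092W, -1.68 ± 0.83 for LYS12 (YIL094C), an enzyme of lysine synthesis, and 0.83 ± 0.50 for PRK1 (YIL095W), a kinase of the actin cytoskeleton. In In Gfp- they were 0.84 ± 0.58, 1.72 ± 0.89 and -0.57 ± 0.55. Over the whole left arm of chromosome IX, however, 47 of 110 tested mutants (42.7%) were called higher in Un Gfp- and 52 of 115 (45.2%) in In Gfp-, *rsm25*Δ among them. On the right arm of chromosome IV, where MRPL28 lies, 12.1% and 12.7% were called higher.

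The remaining members were rare in the dark pools. The 57 strains other than *mrpl28*Δ and *rsm25*Δ summed to 21.9, 37.1 and 77.9 rpm in Un Gfp-, against 802, 902 and 889 rpm in Un presort. In the induced pools they summed to 16.3, 24.2 and 42.9 rpm in In Gfp-, against 821, 794 and 995 rpm in In presort. With total reads as the scale, the 7 other tested strains were called lower in both Gfp- pools. So were most mutants, 3199 of 3414 in Un Gfp- and 3330 of 3553 in In Gfp-. Relative to the bulk of mutants only *mrp13*Δ and *mrpl50*Δ, both in In Gfp-, passed the test, and the log2 fold changes had medians of -0.79 and -0.72 over the 9 tested members in Un Gfp- and In Gfp-, beside -0.55 and -0.69 over all mutants tested.

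The *mrp13*Δ strain, lacking a mitochondria-specific small-subunit protein that is dispensable for respiration, was the only member called lower. It had 3, 0 and 1 reads in In Gfp- (0.228, 0 and 3.30 rpm), against 1283, 732 and 71 reads in In presort (123, 126 and 130 rpm). The pooled share was 0.00218 times that of presort (0.000593 to 0.00558), with a log2 fold change of -2.73 ± 0.73 (adjusted p = 0.0120). The call was lost without replicate 1 (log2 fold change -2.37, adjusted p = 0.388) and without replicate 3 (-2.84, adjusted p = 0.0591). Of all 3553 mutants, 0 and 44 were called lower in these settings. The call was also lost with the replicate number fitted as a block (-2.66, adjusted p = 0.269), where 12 of all mutants were called lower. In Un Gfp- it had 8, 1 and 3 reads, against 634, 242 and 306 in Un presort, and was not called (log2 fold change -0.84 ± 0.54, adjusted p = 0.273). The difference of its enrichment between the induced and uninduced pools was -1.83 ± 0.94 on the log2 scale (adjusted p = 0.526).

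The *mrpl50*Δ strain, lacking a large-subunit protein with a bacterial counterpart, was the third member called higher in In Gfp-, but on few reads. It had 47, 8 and 0 reads in In Gfp- (3.58, 5.88 and 0 rpm), against 697, 394 and 43 reads in In presort (66.6, 68.0 and 78.5 rpm). Its share was lower in every sorted replicate, and its TMM-scaled values overlapped between the groups. The log2 fold change of 1.77 ± 0.52 (adjusted p = 0.0213) turned to -4.17 with total reads as the scale, where the median of all mutants was -6.17, so that on both scales the strain lay above that median. The call was lost without replicate 1 (1.42, adjusted p = 0.455), without replicate 2 (1.62, adjusted p = 0.0581) and with DNTAG reads only (1.01, adjusted p = 0.101). It was also lost with the replicate number fitted as a block (1.42, adjusted p = 0.458). Of the strains nearest to it, *mpp6*Δ (YNR024W), deleted for a factor of nuclear RNA surveillance, had 71 reads in In Gfp-, against 2017 in In presort. Its share of reads was thus lower in In Gfp-, while relative to the bulk it was called higher, with a log2 fold change of 1.42 ± 0.48 (adjusted p = 0.0405).

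Among the other large-subunit strains, *mrpl39*Δ and *mrpl1*Δ lack proteins with bacterial counterparts and *mrpl44*Δ lacks a mitochondria-specific one. The *mrpl1*Δ strain had 1, 0 and 0 reads in Un Gfp-, against 138, 87 and 82 in Un presort, with a log2 fold change of -2.65 ± 1.05 (adjusted p = 0.101). The *mrpl39*Δ strain had 5, 1 and 2 reads in In Gfp-, against 1230, 514 and 114 in In presort, with a log2 fold change of -1.74 ± 0.71 (adjusted p = 0.0789). In the other pool of each, the changes were smaller. The log2 fold change was -1.14 ± 0.88 for *mrpl1*Δ in In Gfp- (adjusted p = 0.320). For *mrpl39*Δ in Un Gfp- it was -0.57 ± 0.59 (adjusted p = 0.492). Neither strain passed the threshold in either pool. The *mrpl44*Δ strain had 6, 5 and 5 reads in Un Gfp-, against 1135, 345 and 468 in Un presort, with a log2 fold change of -0.79 ± 0.60 (adjusted p = 0.347). In In Gfp- its log2 fold change was -0.72 ± 0.59 (adjusted p = 0.347), where the median of all mutants was -0.69.

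The small-subunit strain *rsm28*Δ had 8, 8 and 3 reads in Un Gfp-, against 1128, 331 and 886 in Un presort, with a log2 fold change of -0.92 ± 0.59 (adjusted p = 0.270). In In Gfp- its log2 fold change was -0.42 ± 0.62 (adjusted p = 0.600). The *mrp49*Δ strain, which lacks a large-subunit protein known for a cold-sensitive loss of respiration, had 0, 1 and 0 reads in Un Gfp-, against 95, 52 and 51 in Un presort, with a log2 fold change of -1.90 ± 1.22 (adjusted p = 0.272). For *mrp49*Δ in In Gfp- the log2 fold change was -0.99 ± 1.10 (adjusted p = 0.486). Counts this low limit the precision of these fold changes, as their standard errors show.

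The strains under the presort minimum, *mrps9*Δ and *mrp51*Δ, had opposite counts. The *mrps9*Δ strain (YBR146W), lacking a small-subunit protein with a bacterial counterpart, had 0 reads in every Gfp- library, against 16, 21 and 13 reads in Un presort and 77, 23 and 8 reads in In presort. Taken at 3 reads per sorted pool, the limit that a count of 0 allows, its pooled share was at least 12.6-fold lower in Un Gfp- and at least 31.7-fold lower in In Gfp-. These bounds are smaller than the drop in share of the median mutant (log2 -5.32 and -6.17 with total reads), so they do not set *mrps9*Δ apart from the bulk.

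The *mrp51*Δ strain (YPL118W) lacks a small-subunit protein known to act in translation of mitochondrial mRNAs through their leader sequences. It had 80, 18 and 3 reads in Un Gfp- (13.5, 13.4 and 15.6 rpm), against 7, 0 and 0 reads in Un presort (1.26, 0 and 0 rpm). In the induced pools it had 79, 23 and 2 reads in In Gfp- (6.01, 16.9 and 6.60 rpm), against 32, 1 and 0 reads in In presort (3.06, 0.173 and 0 rpm). Its Gfp- shares all lay above its presort shares under both treatments, but the share of all mutants that did so was not counted. The pooled share was 19.0-fold higher in Un Gfp- (8.91 to 48.5) and 3.58-fold higher in In Gfp- (2.40 to 5.47). Its reads came from both barcodes (27 UPTAG and 74 DNTAG reads in Un Gfp-). It was singled out after its values were seen, and its presort counts, at or near 0, were too low for a test with the read minimum, so these values are a description.

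The enrichment of these mutants did not measurably differ between induced and uninduced cells. The difference of enrichment, In Gfp- over In presort minus Un Gfp- over Un presort, passed the threshold for none of the 9 mutants, on a background of 0% of 3412 tested mutants called in either direction (342 had an unadjusted p under 0.05, none of them among the 9, and DESeq2 called 29 mutants higher and 68 lower, none of them among the 9). DESeq2 gave no adjusted p for *mrpl1*Δ and *mrp49*Δ, so it could not call these strains. By edgeR, the difference of enrichment was -0.52 ± 1.22 on the log2 scale for *mrpl28*Δ (adjusted p = 0.931) and 0.44 ± 1.12 for *rsm25*Δ (adjusted p = 0.937). Over the 9 it ran between -1.83 ± 0.94 for *mrp13*Δ and 1.58 ± 1.65 for *mrpl1*Δ. These standard errors leave room for differences of several fold in either direction.

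Few other strains defective in mitochondrial protein synthesis or respiration could be tested, and the counts called are read beside the shares of all mutants, 12.2% higher and 5.27% lower in Un Gfp- and 15.2% higher and 10.1% lower in In Gfp-. At 5 or 6 strains a list, the counts do not set these strains apart from all mutants. Of 5 tested mutants for mitochondrial translation factors, none was called in Un Gfp-, and in In Gfp- 1 was called lower and 0 higher. It was *mtq1*Δ (YNL063W), which lacks a methyltransferase for a mitochondrial release factor, with a log2 fold change of -1.94 ± 0.64 (adjusted p = 0.0356). Of the respiratory chain and ATP synthase mutants, *qcr6*Δ (YFR033C), lacking a subunit of the cytochrome bc complex, was the only one of 5 called in Un Gfp-, and it was lower (adjusted p = 0.0290). In In Gfp- 1 of 6 was called, *sdh2*Δ (YLL041C), lacking the iron-sulfur subunit of succinate dehydrogenase, which was higher with a log2 fold change of 9.61 ± 1.02 (adjusted p = 1.18e-05, rank 14 of 3553).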

How the data were processed

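Genomic DNA of each pool was amplified for UPTAG and DNTAG barcodes and sequenced. Per the labels and the study's methods, the authors aligned reads with Bowtie2 to the known barcodes joined by ambiguous bases, and deposited raw counts of reads per deletion mutant and tag, with no normalization. Of 48 count columns, 24 were used here. The other 24, for brighter gates, matched no single sample by name and were not used.

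UPTAG and DNTAG counts were summed per replicate. A mutant entered a test when its presort libraries averaged 50 reads or more (both presort groups for the difference of enrichment). The test was run with edgeR 4.0.16 (R 4.3.3) by its two-sided quasi-likelihood test with TMM factors, and p-values were adjusted across every tested mutant (Benjamini-Hochberg, threshold 0.05). Each sorted pool was fitted with its presort pool alone, and the difference of enrichment with all 12 libraries. Standard errors are the log2 fold change divided by the square root of F. Intervals of pooled shares are exact binomial at 95%. Alternatives were median-of-ratios factors, total counts, DESeq2 1.42.0, no minimum, the replicate number as a block, either tag alone, all 12 libraries in each fit, and leaving out each replicate. Each pairwise fit was also run on counts simulated from presort means with a common dispersion and 200 changed mutants. At each size of change, 81.2% to 100% of the changed mutants were recovered. The shift of the bulk in the Gfp- pools was not simulated, so the scaling there was not checked.

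Members were chosen by gene name. The rule for named strains was every member called, the 3 most and 3 least abundant above 0 in Un presort, those at 0 reads, those left untested, and the neighbours of called members by systematic number. The counts of *mrp51*Δ and the DNTAG pattern of *mrpl28*Δ were described after their values were seen. Members, lists and tests were chosen with earlier results of these data known. All 59 symbols matched RefSeq's gene table, as did 5651 of the 6128 ORFs, and it was used for names only.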

Additional observations from a re-analysis of the deposited data

How the results depend on the processing

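With total counts, 7 members were lower in Un Gfp- and 7 in In Gfp-, and *mrpl50*Δ in In Gfp- turned to -4.17, with the median of all mutants at -5.32 and -6.17 in these pools. With no minimum on reads, the members called higher numbered 3 (Un Gfp-) and 4 (In Gfp-), *mrp51*Δ being the added one. Of all mutants, 481 of 4221 and 599 of 4232 were then called higher. With UPTAG reads only, 1 member was higher in Un Gfp-, where 363 of 2907 mutants were. In In Gfp-, 4 members were lower (*mrp13*Δ, *mrp49*Δ, *mrpl39*Δ and *mrpl44*Δ), where 1598 of 3015 mutants were. The median log2 fold change of all mutants was -2.21 in that UPTAG fit. In the difference of enrichment 1 member, *mrp13*Δ, was lower (adjusted p = 0.0377, with 0 UPTAG reads in In Gfp-), where 172 of 2891 mutants were. Leaving out each replicate gave 0 to 2 members higher in Un Gfp-, 2 to 3 higher and 0 to 1 lower in In Gfp-. The cause was not tested. The labels do not say whether same-numbered libraries were paired, and the main fits did not pair them. Deviations from group means correlated between 0.0802 and 0.317 (Un), -0.0965 and 0.00907 (In), and -0.659 and 0.571 (presort pools). These values do not settle whether the libraries were paired. With the replicate block, 0 members were lower and 2 higher in In Gfp-, *mrp13*Δ (adjusted p = 0.269) and *mrpl50*Δ (adjusted p = 0.458) losing their calls, and no other member's call changed. Over all mutants, 416 higher and 180 lower in Un Gfp- became 116 and 3199 with total counts and 0 and 0 without replicate 1 or without replicate 2, and the lower calls became 406 with DESeq2 and 98 with the block. In In Gfp-, 540 higher and 359 lower became 119 and 3330 with total counts, 316 and 12 with the block and 198 and 0 without replicate 1, and the lower calls became 633 with median-of-ratios factors, 697 with DESeq2, 1598 with UPTAG reads, 593 with DNTAG reads, 176 without replicate 2 and 44 without replicate 3. For the difference of enrichment, where 0 were called, higher and lower calls were 1 and 8 with median-of-ratios factors, 2 and 10 with total counts, 29 and 68 with DESeq2, 4 and 11 with no minimum, 7 and 172 with UPTAG reads, 5 and 6 with DNTAG reads, and 0 and 4 without replicate 3. Depth limits the rare members: in Un Gfp- replicate 3 a count of 0 allows up to 15.6 rpm.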
